A study of Homo sapiens with 6 samples.

Results

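The genes described here act at the G1/S transition and in DNA replication. They were chosen by name, as a list of 29 genes. A gene was measured by the array features that the platform annotation assigns to that symbol alone, and where a gene had several features the brightest over all 6 arrays was used. A feature was found for 28 of the 29 genes, among 22411 genes measured in this way. The missing gene is RRM1, the large subunit of ribonucleotide reductase, whose feature carries several symbols. RRM2 had more than 1 feature. RNA came from AC16, a human line derived from adult ventricular cardiomyocytes that were fused with SV40-transformed fibroblasts and that keeps dividing in culture. 3 arrays measured cells exposed to hypothermia (28 °C, 6 h) and 3 measured control cells (37 °C, 6 h), all grown in the same serum-containing medium with 5% CO2. Whether replicates came from different dishes is not stated in the sources used here, and the p-values therefore measure no more than the variation among these arrays, possibly technical. In bulk RNA, fewer cells in a phase and less RNA per cell cannot be told apart.

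In G1 phase, D-type and E-type cyclins activate kinases that release E2F transcription factors from retinoblastoma proteins, and E2F factors then switch on the genes for DNA synthesis. ORC1, CDC6 and CDT1 load the MCM2 to MCM7 ring onto replication origins before S phase. In S phase the ring is activated by CDC45, the GINS complex and MCM10, DNA polymerase alpha with its primase starts the new strands, and RFC and PCNA hold the later polymerases on the template. Ribonucleotide reductase and thymidylate synthase supply the nucleotides, and histone chaperones and SLBP supply the histones. The large T antigen of SV40 is known to bind retinoblastoma proteins. The comparison asks what 6 h at 28 °C did to the transcripts of this machinery.

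The labelled cell type was checked against cardiomyocyte genes. A feature was found for 11 of 13 of them. Their mean signals ran from 2.35 to 9.14, those of 7 fibroblast genes from 3.34 to 11.1 and those of 5 leukocyte genes from 2.19 to 8.55. The signal of TTN, the sarcomere spring titin, was 2.38, 2.35 and 2.37 at 28 °C and 2.30, 2.35 and 2.36 at 37 °C. This is below the median background feature of every array, which was 2.47 to 2.60. NPPB, the natriuretic peptide gene, averaged 9.12 at 28 °C and 9.15 at 37 °C. Background features had means of 1.76 to 10.9 by feature, so no single level parts signal from background. 10 of the 11 cardiomyocyte genes had a higher mean at 28 °C, 1 had an unadjusted p under 0.05, and none passed the limma test described below. About 42000 of the 70523 features had a higher mean as well, and so did 5 of 7 fibroblast and 5 of 5 leukocyte genes. Of all features 11.5% had an unadjusted p under 0.05 in either direction.

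Promoter windows of these genes were searched for short motifs. RefSeq promoter windows of GRCh38.p14 (250 bases before to 50 after the start) were available for 24 of the 29 genes. CCND1, CCNE2, E2F8, MCM4 and MCM5 had none. An E2F motif was counted where a window held TTTGGCGC, TTTCCCGC, TTTGCCGC or TTTCGCGC on either strand, overlaps allowed. It was found in 13 of the 24 windows (54.2%), against 908 of the 27303 windows of all genes (3.33%). CCAAT, the NF-Y box, stood in 15 of the 24 (62.5%) and in 35.7% of all windows. TTTGAA or TTTAAA, the core of the element known from mitotic promoters, stood in 3 of the 24 (12.5%) and in 24.3% of all windows. In windows of mitosis and G2/M genes the shares were 5.77% for the E2F motif, 69.2% for CCAAT and 84.6% for TTTGAA or TTTAAA. In windows of other G1/S and replication genes, outside the member list, they were 30.3%, 47.4% and 11.8%. A match describes letters only and does not show that a factor binds. The 5 windows below belong to members named in the results that follow. They are written from 5′ to 3′ on the strand of the gene with the E2F motifs in capitals. E2F2 and CDT1 had higher means at 28 °C, and the other 3 had lower means.
E2F2, chr1:23531184-23531483, minus strand, 1 motif: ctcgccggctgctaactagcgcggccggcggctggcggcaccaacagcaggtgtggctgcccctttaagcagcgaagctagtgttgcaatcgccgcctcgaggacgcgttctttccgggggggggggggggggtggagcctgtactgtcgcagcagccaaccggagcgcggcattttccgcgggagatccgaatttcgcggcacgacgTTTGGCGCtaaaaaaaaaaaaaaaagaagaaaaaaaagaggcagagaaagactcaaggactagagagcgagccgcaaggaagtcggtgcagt
CDT1, chr16:88803539-88803838, plus strand, 1 motif: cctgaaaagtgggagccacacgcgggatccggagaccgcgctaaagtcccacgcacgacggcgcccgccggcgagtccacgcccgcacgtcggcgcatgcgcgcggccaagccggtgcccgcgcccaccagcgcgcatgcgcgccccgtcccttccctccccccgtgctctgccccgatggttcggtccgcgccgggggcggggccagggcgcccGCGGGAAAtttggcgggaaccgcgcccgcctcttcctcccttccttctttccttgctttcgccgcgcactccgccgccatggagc
MCM6, chr2:135876394-135876693, minus strand, 4 motifs in overlapping pairs: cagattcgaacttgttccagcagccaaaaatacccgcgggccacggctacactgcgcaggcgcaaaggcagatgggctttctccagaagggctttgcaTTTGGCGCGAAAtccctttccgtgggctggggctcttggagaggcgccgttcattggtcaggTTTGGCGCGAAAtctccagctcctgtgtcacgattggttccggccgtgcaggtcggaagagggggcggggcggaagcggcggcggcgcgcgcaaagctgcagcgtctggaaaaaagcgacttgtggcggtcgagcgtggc
POLA1, chrX:24693668-24693967, plus strand, 1 motif: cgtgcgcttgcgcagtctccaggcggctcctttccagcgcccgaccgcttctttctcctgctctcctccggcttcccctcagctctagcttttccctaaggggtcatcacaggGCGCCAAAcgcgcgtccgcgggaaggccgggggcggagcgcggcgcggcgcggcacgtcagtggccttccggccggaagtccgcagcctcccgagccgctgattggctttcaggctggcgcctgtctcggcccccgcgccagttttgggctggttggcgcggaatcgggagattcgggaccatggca
SKP2, chr5:36151861-36152160, plus strand, no motif: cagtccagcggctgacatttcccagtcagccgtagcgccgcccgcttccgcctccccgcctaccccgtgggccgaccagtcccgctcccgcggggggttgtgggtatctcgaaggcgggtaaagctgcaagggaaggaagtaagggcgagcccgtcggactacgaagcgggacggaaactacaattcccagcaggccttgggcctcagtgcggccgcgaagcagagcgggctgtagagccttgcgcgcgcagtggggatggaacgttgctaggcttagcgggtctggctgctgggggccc
Counted from the start, with negative positions before it, the motif of E2F2 spans -42 to -35, that of CDT1 -35 to -28 and that of POLA1 -137 to -130. In each MCM6 pair the motifs overlap on opposite strands. The 13 members whose window held the motif had a median log2 difference of 0.00, with 7 higher and 6 lower means at 28 °C. The 10 measured members whose window lacked it (RRM1 has a window but no value) had a median of -0.04, with 4 higher and 6 lower means. Members with the motif ranged from -0.31 to 0.36, and those without it from -0.31 to 0.15, so the ranges largely coincide. The members without a window are in neither group, among them E2F8, the lowest member at -0.32.

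No member passed the test at 28 °C, and the differences of the whole set were small. Each of the 70523 features was tested with limma, the difference being 28 °C minus 37 °C. The Benjamini-Hochberg method was applied across the whole array, with 0.05 as the threshold. Of the 28 members 0 were higher and 0 were lower. Over all features, 0.227% were higher and 0.591% lower (0.818% in either direction). Over the 7944 genes with mean signals inside the members' range (5.58 to 9.56), 0.969% were higher and 1.27% lower (2.24% in either direction). The lowest adjusted p of a member was 0.0571, and it was 0.0558 in the random variance model, where 0 members passed as well. At an unadjusted p under 0.05, 2 members were higher and 5 were lower. Over all features these shares were 5.41% higher and 6.08% lower (11.5% in either direction), and over the equally bright genes 7.11% and 16.3% (23.4% in either direction). The members' 7 of 28 is near the share of equally bright genes. Throughout, this term means genes within the members' range of mean signal, which were not matched to the members in brightness inside it.

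The median log2 difference of the members was -0.02, and it was 0.03 over all features and -0.01 over the equally bright genes. Opposite signs cancel in this median. Taken without sign, the median difference was 0.097 for the members, 0.081 over all features and 0.106 over the equally bright genes. The members ranged from -0.32 to 0.36, with 13 means higher and 15 lower at 28 °C. Within the 28 genes, 7 had all 3 hypothermia arrays above all control arrays and 6 had them all below. Of all features 9.38% did not overlap in the higher direction and 8.49% in the lower one (17.9% in either), and of the equally bright genes 13% and 23.6% (36.6% in either). The 95% interval of the difference lay within 1.5-fold in either direction for each of the 28 genes, taken 1 at a time. At the median standard error of the members (0.0674), a log2 difference of 0.39, or 1.31-fold, would have been needed to pass in this fit, and at the smallest and largest standard errors 0.34 and 0.67. The sign of the members' median turned after quantile normalization (0.03), with the brighter background features as a covariate (0.02), with the mean of a gene's features (0.00) and without control replicate 2 or hypothermia replicate 3 (0.01 each), and scaling also turned the sign of CDC45, MCM4, PCNA, PRIM1, RRM2 (quantile), CDC6 and GINS2 (median centring), all with differences near 0.

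**Figure D1:**
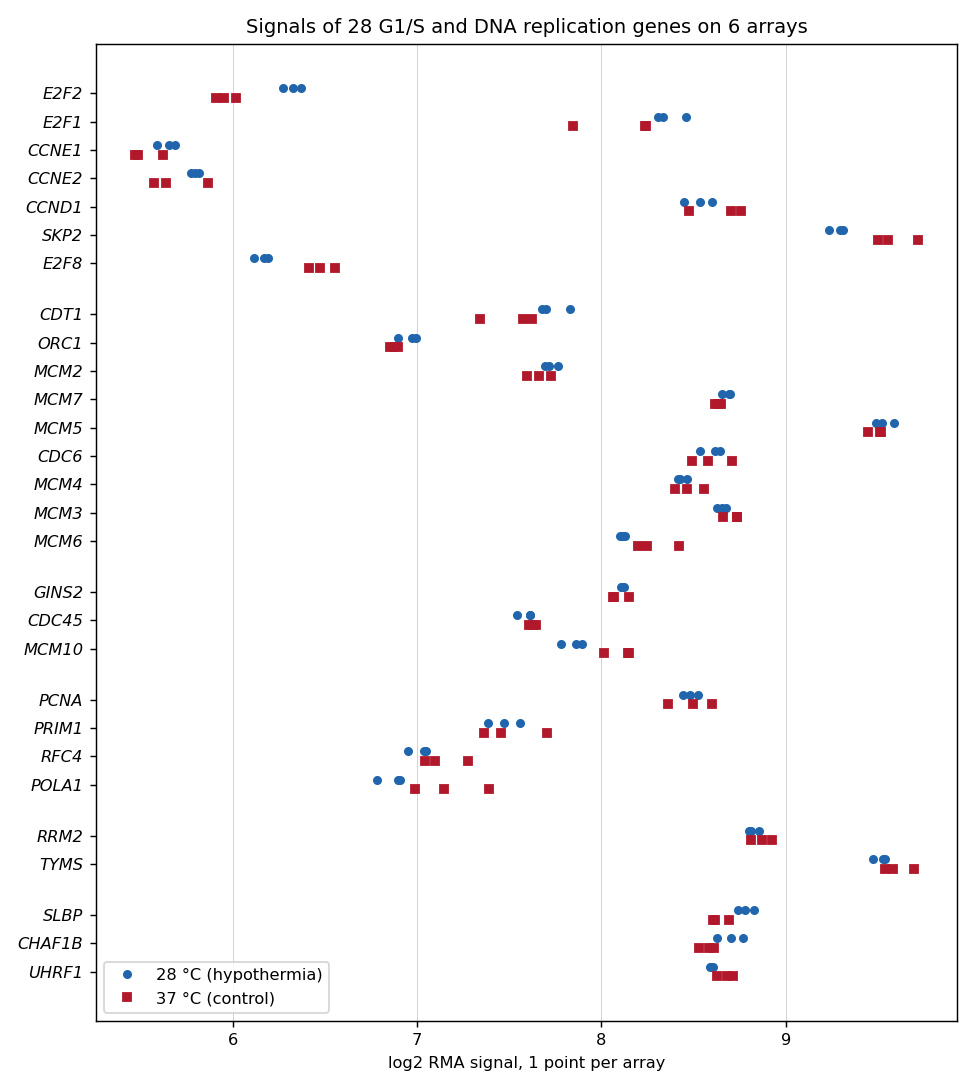
Each row is a member gene and each point 1 array on the log2 RMA signal axis, with hypothermia (28 °C) as circles above control (37 °C) as squares, and gaps part the roles. The points of E2F2, E2F8, SKP2 and MCM10 fall apart by group, while those of PCNA, CDC6 and MCM4 overlap.

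**Figure D2:**
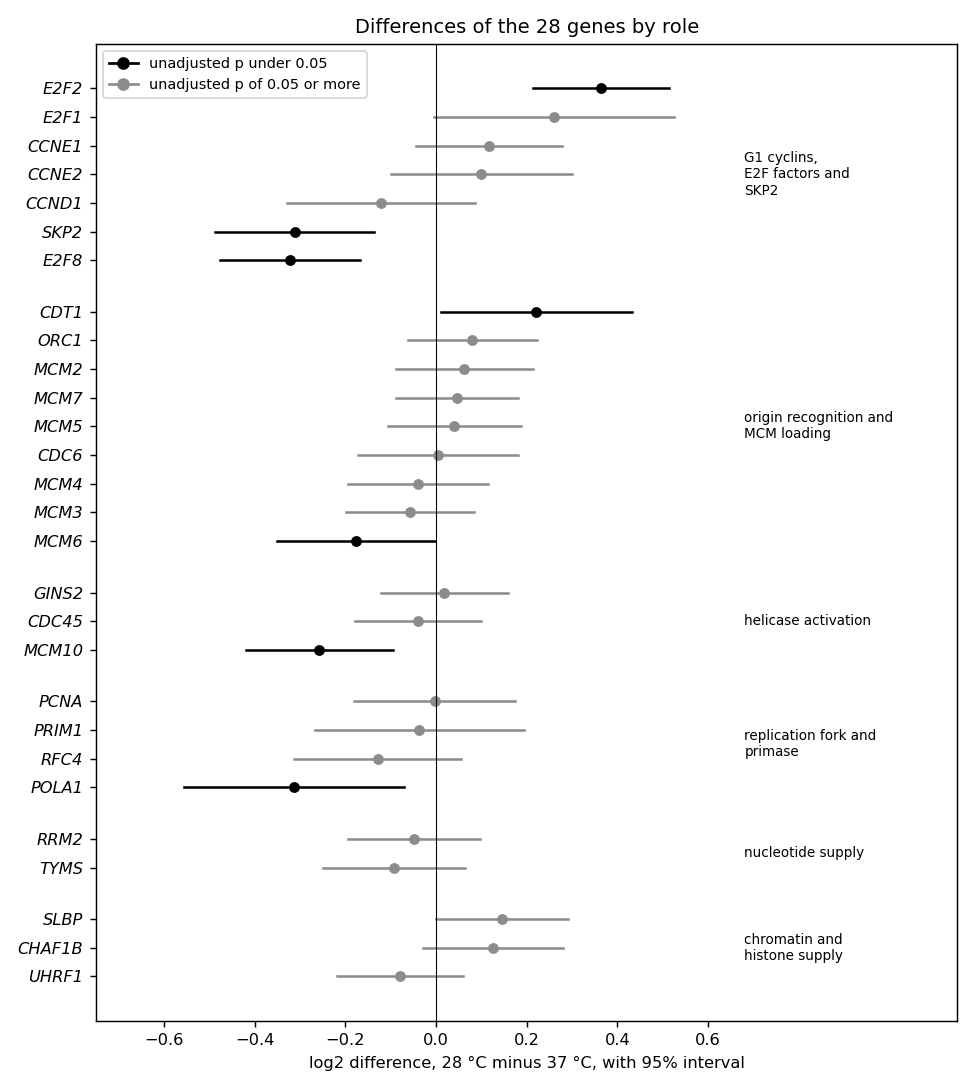
Points give the log2 difference (28 °C minus 37 °C) of each member and lines its 95% interval from limma, ordered by role and size. Black marks the 7 members with an unadjusted p under 0.05, from E2F2 at 0.36 to E2F8 at -0.32, and no member passed after adjustment.

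Among the regulators of G1, E2F2 and E2F8 had the largest differences of the list in size, and they pointed opposite ways. E2F2, an activator of S-phase genes, had signals of 6.27, 6.33 and 6.37 in hypothermia arrays, against 6.02, 5.91 and 5.95 in controls. The lowest hypothermia array stood above the highest control. The log2 difference was 0.36 (standard error 0.0649, 95% interval 0.21 to 0.51, adjusted p = 0.0571 from limma), a 1.29-fold level. This is the member nearest to the threshold, which it passed after quantile normalization (adjusted p = 0.0346), with array weights (0.0325) and when only features above the 25th or the 50th percentile of signal were tested (0.0489 and 0.033). Its adjusted p was 0.0688 to 0.241 in the 6 fits that left out 1 array. E2F1, the other activator among the members, had signals of 8.31, 8.33 and 8.46 at 28 °C, against 8.24, 7.85 and 8.23 at 37 °C. Control replicate 2 was far below the other controls, and the groups did not overlap. The log2 difference was 0.26 (standard error 0.115, adjusted p = 0.444), and it was 0.13 without control replicate 2.

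E2F8, an atypical factor that represses E2F targets, had signals of 6.17, 6.19 and 6.11 at 28 °C, against 6.56, 6.41 and 6.47 at 37 °C. All hypothermia arrays lay below all controls. The log2 difference was -0.32 (standard error 0.0667, 95% interval -0.48 to -0.17, adjusted p = 0.0956 from limma). It passed only with array weights (adjusted p = 0.0307). The activator E2F3, named in the wider list of pathway genes, had a log2 difference of 0.14 (adjusted p = 0.568), and E2F7, the close relative of E2F8, had -0.01 (adjusted p = 0.982). E2F4, which acts with the retinoblastoma relatives as a repressor, had -0.33 (adjusted p = 0.112).

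SKP2, the subunit that lets the SCF ubiquitin ligase recognise the kinase inhibitor p27, had signals of 9.31, 9.29 and 9.23 at 28 °C, against 9.55, 9.72 and 9.50 at 37 °C. The groups did not overlap. Its log2 difference was -0.31 (standard error 0.0757, 95% interval -0.49 to -0.14, adjusted p = 0.147). CDKN1B, the gene of p27 itself, had -0.37 (adjusted p = 0.0642), with means of 7.11 at 28 °C and 7.48 at 37 °C. The start of SKP2 lies 224 bases from that of LMBRD2 on the opposite strand, so the window printed above covers the starts of both genes. LMBRD2 had signals of 4.98, 5.00 and 5.00 in hypothermia arrays and 5.35, 5.66 and 5.18 in control arrays, a log2 difference of -0.41 (adjusted p = 0.219). In both genes control replicate 2 was the highest array. Among the members with a promoter window, 4 others had such a neighbour within 1000 bases. CCND1, CCNE2, E2F8, MCM4 and MCM5 had no window and were not searched, and neighbours without a window could not be found. PRPF38A, a splicing factor gene beside ORC1, had -0.40 (adjusted p = 0.123) while ORC1 had 0.08. TPRA1 beside MCM2, AP4M1 beside MCM7 and CDS2 beside PCNA had 0.05, 0.03 and 0.01.

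The cyclins had small differences. CCND1, the D-type cyclin that partners CDK4 and CDK6, had a log2 difference of -0.12 (95% interval -0.33 to 0.09, adjusted p = 0.644), with overlapping groups. CCNE1 and CCNE2, the partners of CDK2 at the start of S phase, had 0.12 and 0.10 (adjusted p = 0.566 and 0.691). Leaving out 1 array moved CCND1 between -0.21 and -0.06 and CCNE2 between 0.04 and 0.19, the extremes being without control replicates 3 and 1 for CCND1 and without control replicates 3 and 2 for CCNE2. CCNE1 lay between 0.09 and 0.16 in these fits. Of the kinases, CDK2 had -0.05, CDK4 -0.03 and CDK6 -0.17, and none passed. CDKN1A, the inhibitor p21, averaged 7.06 at 28 °C and 6.80 at 37 °C, a log2 difference of 0.26 (adjusted p = 0.189), and its groups did not overlap. RB1 and RBL1 of the retinoblastoma family had -0.29 and -0.19 (adjusted p = 0.32 and 0.502).

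**Figure D3:**
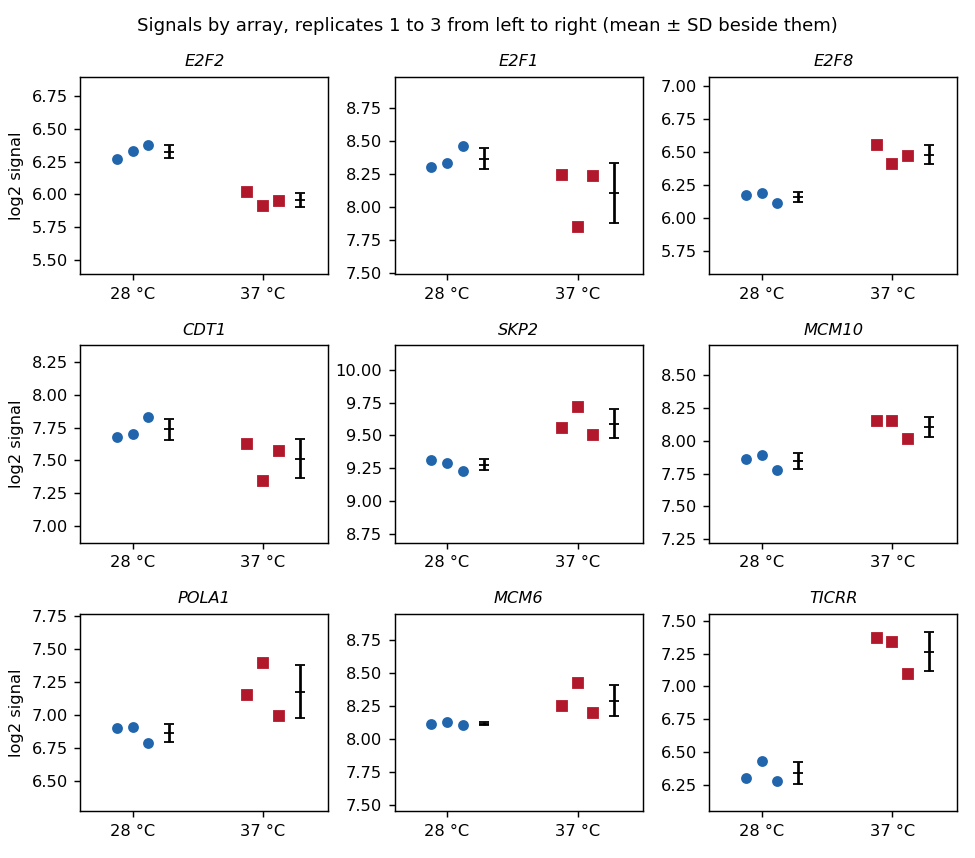
Each panel shows the log2 RMA signals of 1 gene by array, with 28 °C left of 37 °C, replicates 1 to 3 from left to right and the mean ± SD (n = 3) beside them, on y axes that all span 1.5 log2 units. Control replicate 2 lies apart in E2F1, CDT1, SKP2, POLA1 and MCM6, and TICRR has the widest gap between the groups.

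The transcripts of the MCM ring differed little between the temperatures. MCM2, MCM3, MCM4, MCM5, MCM6 and MCM7, the subunits of the ring, had log2 differences of 0.06, -0.06, -0.04, 0.04, -0.18 and 0.05, with a median of 0.00. MCM6 alone had an unadjusted p under 0.05 (0.0482, adjusted p = 0.43). Its signals were 8.11, 8.13 and 8.10 at 28 °C, against 8.25, 8.42 and 8.20 at 37 °C, and the difference without control replicate 2 was -0.11. Among the other 5 subunits the widest 95% interval was that of MCM4, from -0.19 to 0.12. CDT1, which brings the ring to origins and is destroyed once S phase begins, pointed the other way. It had signals of 7.68, 7.70 and 7.83 in hypothermia arrays and 7.62, 7.34 and 7.57 in control arrays, a log2 difference of 0.22 (95% interval 0.01 to 0.43, adjusted p = 0.407). Without control replicate 2 it was 0.14. ORC1, the large subunit of the origin recognition complex, and CDC6, its partner in loading, had 0.08 and 0.00. GMNN, the inhibitor of CDT1, had 0.02.

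Among the factors that turn the loaded ring into an active helicase, MCM10 had a larger difference than CDC45 and GINS2. MCM10 had signals of 7.86, 7.89 and 7.78 at 28 °C, against 8.15, 8.15 and 8.01 at 37 °C, with no overlap. Its log2 difference was -0.26 (standard error 0.0702, 95% interval -0.42 to -0.10, adjusted p = 0.198). CDC45 and GINS2, which join the ring to form the replicative helicase, had -0.04 and 0.02 (adjusted p = 0.83 and 0.93). TICRR, a firing factor that brings CDC45 to origins and is a gene of the wider list, had the largest difference in size among the members and the wider list. Its signals were 6.31, 6.44 and 6.28 in hypothermia arrays, against 7.37, 7.34 and 7.09 in control arrays. TICRR fell by 0.92 on the log2 scale (standard error 0.0911, adjusted p = 0.00627 from limma), to 0.527 of the control level. It passed without any 1 of the 6 arrays (adjusted p = 0.00862 to 0.0438 from limma), but not when each feature was tested with its own variance alone, by which 0 features passed (adjusted p = 0.171). Its partner MTBP had -0.34 (adjusted p = 0.314), TOPBP1 had -0.29 (adjusted p = 0.315), and DBF4 and CDC7, the kinase that fires origins, had -0.37 and -0.15 (adjusted p = 0.176 and 0.515).

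At the fork, POLA1 had the largest difference and the widest interval. POLA1, the catalytic subunit of DNA polymerase alpha, had signals of 6.90, 6.91 and 6.78 at 28 °C, against 7.15, 7.39 and 6.99 at 37 °C. The groups did not overlap, though control replicate 3 came near the hypothermia arrays. Its log2 difference was -0.31 (standard error 0.105, 95% interval -0.56 to -0.07, adjusted p = 0.303), and it was -0.21 without control replicate 2 and -0.41 without control replicate 3. PRIM1, the primase subunit that works with it, had -0.04. PCNA, the sliding clamp, had -0.00 (95% interval -0.18 to 0.18), and RFC4, a subunit of its loader, had -0.13. RefSeq lists 4 pseudogenes of PCNA, 3 of RRM2, 2 of TYMS and 1 each of ORC1 and SKP2 by symbol, and whether their transcripts reach these features was not tested.

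The enzymes of nucleotide supply had small differences. RRM2, the small subunit of ribonucleotide reductase, had -0.05 in its brighter feature (95% interval -0.19 to 0.10). Its dimmer feature had signals of 4.77, 4.75 and 4.91 at 28 °C and 4.49, 4.14 and 4.59 at 37 °C, a log2 difference of 0.40 (adjusted p = 0.236), so the direction of RRM2 depends on the feature. TYMS, thymidylate synthase, had -0.09 (adjusted p = 0.638). TK1, the thymidine kinase, and RRM2B, the other small reductase subunit, had 0.03 and -0.10.

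The chromatin and histone genes of the list had narrow spreads. SLBP, which binds the stem-loop of histone mRNAs, had signals of 8.74, 8.83 and 8.78 in hypothermia arrays and 8.69, 8.62 and 8.61 in control arrays. The groups did not overlap, and the log2 difference was 0.15 (standard error 0.0631, unadjusted p = 0.0507, adjusted p = 0.437). CHAF1B, a subunit of the histone chaperone CAF-1, had 0.13, and UHRF1, which guides maintenance methylation of new DNA, had -0.08, both without overlap between groups. Of 31 replication-dependent histone genes, whose mRNAs SLBP binds, 0 passed in limma and 0 in the random variance model. 5 of the 31 were lower and 0 higher at an unadjusted p under 0.05, with a median log2 difference of -0.05. Over all features 6.08% were lower and 5.41% higher at this p, and over genes in the members' signal range 16.3% and 7.11%. The mean signals of the histone genes ran from 1.996 to 11.71, beyond the members' range at both ends. Neither set was therefore matched to the histone genes in brightness, and whether 5 of 31 exceeds the share of comparable genes was not tested.

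Genes of the same pathway outside the member list were counted in the same way. Of 89 measured, 0 were higher and 1, TICRR, was lower after adjustment. At an unadjusted p under 0.05, 2 were higher and 27 were lower, and 64 of the 89 means were lower at 28 °C. Beside this, 6.08% of all features were lower and 5.41% higher at that p, and of the genes within the members' range of signal 16.3% and 7.11%, with 4207 of these 7944 means lower. Their median log2 difference was -0.07. Those next to the threshold after TICRR were ORC2, a subunit of the origin recognition complex, with -0.48 (adjusted p = 0.0571), then CDKN1B, described above, and CASP8AP2, a factor of histone gene expression, with -0.44 (adjusted p = 0.0827). ORC2 and CASP8AP2, like E2F4, MTBP and TOPBP1 above, were singled out after their values were seen. CCND2 and CCND3, the other D-type cyclins, had 0.08 and 0.03.

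Mitosis and G2/M genes, the neighbouring part of the cell cycle, were also set beside the members. Of 63 measured, 0 were higher and 0 lower in limma, and likewise in the random variance model. At an unadjusted p under 0.05, 1 was higher and 19 were lower, and 56 of the 63 means were lower, with a median log2 difference of -0.11. The shares for lower features at that p were 6.08% over the array and 16.3% over genes in the members' signal range, where 4207 of 7944 means were lower. The members' own median was -0.02. The difference between the lists was not tested. Control replicate 2 was the array with the highest median in both lists. Relative to each gene's mean over the 6 arrays, the median mitosis gene stood at -0.07, -0.03 and -0.06 on the hypothermia arrays, against 0.06, 0.20 and -0.03 on the control arrays. The median member stood at 0.00, 0.00 and -0.03, against 0.01, 0.07 and -0.03.

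**Figure D4:**
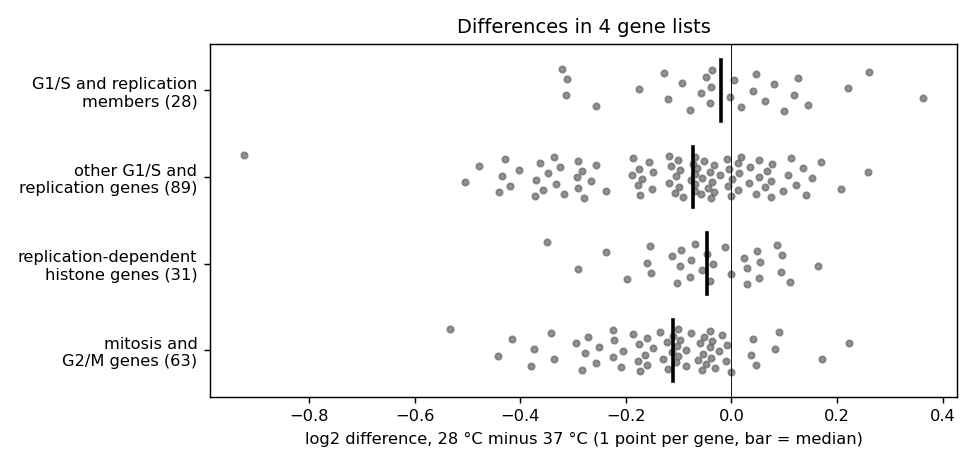
Each point is a gene on the axis of log2 difference (28 °C minus 37 °C), in 4 lists from top to bottom, with a bar at the median. The medians are -0.02 for the members, -0.07 for other G1/S and replication genes, -0.05 for histone genes and -0.11 for mitosis and G2/M genes, and TICRR is the lone point at -0.92.

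The arrays of a group were not equal. Control replicate 2 gave the highest of the 6 signals in 12 of the 28 members and the lowest in 6. Among the equally bright genes it was highest in 33.9% and lowest in 35.5%, each the largest share of any array. The part of this array in the results was not tested beyond the values given without it. Control replicate 3 was highest in 0 and lowest in 8 members, beside 9.49% and 15.4% of the equally bright genes. Hypothermia replicate 3 was highest in 6 and lowest in 9 members, beside 24.9% and 22.7% of those genes. The mean of the brighter background features was 6.40, 6.39 and 6.49 on the hypothermia arrays, against 6.20, 6.10 and 6.47 on the control arrays. With that mean as a covariate, the log2 differences were 0.35 for E2F2, -0.32 for E2F8, -0.22 for SKP2, -0.18 for MCM10, -0.14 for POLA1, -0.09 for MCM6 and 0.13 for CDT1, and again 0 members passed in limma. TICRR passed in that fit with -0.79 (adjusted p = 0.0297).

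MCM7 also carries microRNA genes inside its boundaries, in the cluster of MIR106B, MIR93 and MIR25 on the minus strand of chromosome 7. Of its products, miR-106b and miR-93 are known to repress E2F1, and the mature sequences are shown because they share a position with a member. Capitals mark the seed, bases 2 to 8.
hsa-miR-106b-5p, chr7:100094043-100094063: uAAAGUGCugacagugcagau
hsa-miR-93-5p, chr7:100093815-100093837: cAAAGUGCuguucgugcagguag
hsa-miR-25-3p, chr7:100093571-100093592: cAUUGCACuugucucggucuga
Both 5p sequences hold the same seed, and miR-25-3p has another. The features of MIR106B and MIR25 had log2 differences of -0.08 and 0.14 (adjusted p = 0.843 and 0.78), while MCM7 itself had 0.05. MIR25 gave 5.20, 5.16 and 5.43 at 28 °C and 4.81, 5.03 and 5.52 at 37 °C, with overlapping groups. No feature of its own was found for MIR93, and the array features report RNA of the gene, not the mature microRNA.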

How the data were processed

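Total RNA of 6 AC16 samples was hybridised to Affymetrix arrays. Per the labels, the authors ran RMA and deposited its log2 values, RMA being a method that removes background, equalises arrays and combines probes into 1 value per feature, which tends to shrink differences of dim features. Version and settings: not given in the sources used here. These log2 values were used as deposited. Platform annotation gave 1 symbol to 23781 features, and 23777 of these were found in a RefSeq table of GRCh38.p14 (306 renamed).

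With R 4.3.3 and limma 3.58.1, a linear model with group as the only term (lmFit, then eBayes) was run on all 70523 features, followed by the Benjamini-Hochberg adjustment. An adjusted p without a named test is limma's. No 2 arrays were identical. The fits were tested on simulated data, with variances drawn from the limma model. There limma recovered 17.9% of true log2 differences of 0.5, 86.6% of those of 1 and 100% of those of 2. A member that did not pass may therefore still differ by an amount of the size seen here. The random variance model named in the study's methods was fitted by maximum likelihood as an alternative, beside other normalizations, filters, variance models, array weights, thresholds, the replicate number as a block and the omission of each array. Levels are not compared between genes.

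The members and lists were chosen with earlier results of these data known. Named were all members, the genes of the other lists past the threshold (at most 10 a list), and CCND2, CCND3, CDK2, CDK4, CDK6, CDKN1A, CDKN1B, RB1, RBL1, E2F3, E2F7, GMNN, DBF4, CDC7, RRM2B and TK1. An item of this rule is not reported here. Fibroblast and leukocyte markers were measured too (7 and 5 genes), and none passed in limma. Promoter and microRNA sequences come from RefSeq tables of GRCh38.p14.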

Additional observations from a re-analysis of the deposited data

How the results depend on the processing

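The precision of 6 arrays limits these results. Of 476 values of a member under another setting, 24 changed sign, in 8 members whose log2 difference was at most 0.12 in size, and 5 passed the threshold (E2F2 in 4 settings and E2F8 in 1). 20 members never changed sign. After quantile normalization 190 features were higher and 353 lower. With it 1 member was higher and the members' median was 0.0284, and CDC45, MCM4, PCNA, PRIM1 and RRM2 had 0.00771, 0.00707, 0.0402, 0.0167 and 0.00953. After centring on the median, CDC6 had -0.0319 and GINS2 -0.0182. Above the 25th percentile of signal 190 features were higher and 459 lower, with 1 member higher and 1 mitosis gene lower. Above the 50th percentile 249 features were higher and 628 lower, with 1 member higher, 4 other replication genes lower and 2 mitosis genes lower, and fewer features were tested there. The intensity trend together with robust variances gave 173 higher and 434 lower features and 1 lower mitosis gene. Array weights gave 379 higher and 1107 lower features, 1 higher and 1 lower member, 7 lower replication genes and 4 lower mitosis genes, with GINS2 at -0.00997. The methods' t-test, here a plain t-test per feature, gave 0 higher and 0 lower features after adjustment, so 0 other replication genes, and TICRR had an adjusted p = 0.171. With the brighter background as a covariate 66 features were higher and 105 lower, the members' median was 0.0194, and CCND1, MCM4, PCNA, PRIM1 and RRM2 had 0.00832, 0.0305, 0.105, 0.113 and 0.00337. The mean of its features put RRM2 at 0.177. At an adjusted p under 0.1 there were 1 higher and 1 lower member, 4 lower replication genes and 2 lower mitosis genes. All features passing at 0.1 were not counted, so these counts have no share to be read against. At an unadjusted p under 0.05 there were 2 higher and 5 lower members, 2 and 27 other replication genes, 1 and 19 mitosis genes and 5 lower histone genes. The cause of these shifts was not tested except where stated.

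Leaving out 1 array gave 60 to 214 higher and 112 to 799 lower features, with both highest counts without control replicate 3 and 60 to 86 higher and 112 to 208 lower without any 1 of the other 5 arrays. Members that passed stayed at 0 in each of these 6 fits. Other replication genes that were lower numbered 1 to 5 and mitosis genes 0 to 2, again highest without control replicate 3, and the members' median was -0.0567 to 0.0116. CDC6 ranged from -0.0467 to 0.0623, PCNA from -0.0635 to 0.0541, MCM4 from -0.0778 to 0.00299 and PRIM1 from -0.11 to 0.0625.

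The titles number the replicates of each group 1 to 3. Deviations of same-numbered arrays correlated at -0.0817, 0.114 and 0.215, and those of different-numbered arrays at -0.25 to 0.131. The ranges overlap, though 0.215 was the highest value, so the correlations do not settle whether the numbers are pairs. The titles do not call them pairs, and they were not taken as such in the main fit. With the replicate number as a block 122 features were higher and 304 lower, 0 members passed, and E2F2 had an adjusted p = 0.122.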
